A study of Homo sapiens with 6 samples.

Results

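The genes described here are 51 DNA repair and damage response genes, taken from a list of gene symbols. Of these, 41 had a probe set of their own, 7 were measured only by probe sets that they share with a neighbouring or related gene, and 3 (BRCA2, FANCA and FANCD2) were not analysed here. The signals come from 6 Affymetrix human exon arrays with total RNA of HCC827 cells, an established human lung adenocarcinoma line whose EGFR gene carries an activating deletion. The 3 arrays of the 2D group hold cells grown as a monolayer with no coating of the dish. By their sample labels the 3 arrays of the 3D group hold embedded cultures, whereas the study writes of 3D spheroids for its array results. The sample labels name Matrigel, and the methods of the study name Matrigel with collagen type I for embedded spheroids. Spheroids were formed in hanging drops or in HydroCell plates, and the sources do not say which was used for the arrays. No drug is named for either group, and both come from 1 cell line. The methods give serum-containing medium for the cell lines in general and do not name the medium of the array cultures. The question put to these arrays was how gene expression differs between the 2D and 3D cultures.

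Cells keep their genome intact with several repair systems, each for its own kind of lesion. Homologous recombination copies the sister chromatid to mend a double-strand break and is therefore used after replication, whereas end joining seals broken ends at any stage of the cell cycle. Mismatch, base excision and nucleotide excision repair replace stretches of 1 strand, and the kinases ATM and ATR pass the alarm on to checkpoints and to p53. Many genes of homologous recombination and of the Fanconi anaemia pathway are transcribed mainly in dividing cells, through E2F factors and related complexes.

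The values are log2 signals, so that a difference of 1 is a doubling, and each difference is 3D minus 2D. Each was tested with limma (2-sided), the Benjamini-Hochberg adjustment ran over the 22011 probe sets of the array, and 0.05 was the threshold. It was passed by 84 probe sets. Nothing in the labels tells if replicates came from separate cultures, so a p-value here reflects just the spread among these arrays, which may be technical. In RNA of whole cultures, fewer cells that transcribe a gene and less RNA per cell cannot be told apart. The array called 3D replicate 2 stood apart, at 58.8 on the first principal component against 22.8 and -2.99 for the other 3D arrays. The counts and the median of the members, and the values of some genes and lists, are also given without it. The 6 epithelial markers (EPCAM, CDH1, KRT8, KRT18, KRT19 and CLDN7) had a mean signal of 9.77 to 9.84 in 2D and of 9.12 to 9.64 in 3D. All 6 had a difference below 0, as did 5750 of the 14232 genes with a probe set of their own. The 6 ran from -1.16 for KRT19 to -0.13 for KRT8, and 0 passed the test. The mean signal was 5.35 to 5.52 in 2D and 5.56 to 5.77 in 3D for 6 fibroblast genes, 5.18 to 5.25 and 5.14 to 5.19 for 4 endothelial genes, and 4.30 to 4.54 and 4.69 to 4.88 for 3 of 4 leukocyte genes. Probes differ in brightness, so these levels do not tell how many cells of a type were present. All 6 fibroblast genes and all 3 leukocyte genes had a difference above 0, as did 8482 of the same 14232 genes. Of these 9 marker genes 0 passed the test. Their largest difference was that of the monocyte gene CD14, at 5.67, 5.50 and 5.22 in 2D and 6.13, 6.33 and 6.05 in 3D. The part of these markers in the results was not tested. Of 4 lung adenocarcinoma markers 2 had a probe set of their own, namely EGFR at -0.67 (limma, adjusted p = 0.171) and the surfactant gene SFTPB at 0.59 (limma, adjusted p = 0.195).

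Of the 41 repair and damage response genes with their own probe set, 0 were higher and 0 were lower in 3D at the threshold. Of all 14232 genes 0.162% were called higher and 0.246% lower. At shares this small, 0 of 41 does not set the members apart from all genes. Before adjustment 2 of the 41 were higher and 8 were lower at a p under 0.05, which is 4.88% and 19.5%, beside 7.46% and 7.12% of all genes. The 2 higher genes were NBN and LIG4, and the 8 lower genes were MDC1, APEX1, RAD54L, PARP1, BRCA1, DDB2, PRKDC and FANCI. The 3D and 2D arrays did not overlap for 4 genes that lay higher in 3D (9.76%, against 14.3% of all genes) and for 8 that lay lower (19.5%, against 9.75%). The median difference of the 41 genes was -0.21, with 15 above 0 and 26 below, while the median of all genes was 0.071. A 95% interval of a single member reached 0.475 to either side of its estimate in the median.

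Single arrays moved these counts. The shares that follow are of the 41 members and then of all genes, at a p under 0.05 before adjustment. With 2D replicate 1 left out, 2 members were higher (4.88% beside 4.08%) and 3 were lower (7.32% beside 4.3%). With 2D replicate 2 left out, 2 were higher (4.88% beside 7.0%) and 8 were lower (19.5% beside 6.32%). With 2D replicate 3 left out, 2 were higher (4.88% beside 3.43%) and 1 was lower (2.44% beside 3.79%). The calls thus became fewer over all genes as well when 2D replicate 1 or 3 was dropped. Dropping 3D replicate 1 gave 3 higher (7.32% beside 5.14%) and 2 lower (4.88% beside 5.42%). Dropping 3D replicate 3 gave 2 higher (4.88% beside 9.76%) and 8 lower (19.5% beside 8.9%). Without 3D replicate 2 the higher genes numbered 7, which is 17.1% of the members beside 7.87% of all genes, and the 5 lower genes were 12.2% beside 8.07%. The median of the members was then -0.027, and that of all genes 0.047. The genes that kept a p under 0.05 before adjustment with all arrays and without each array in turn were NBN and LIG4, which were higher, and MDC1, which was lower. How many of all genes did the same was not counted, so no background stands beside these genes.

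**Figure D1:**
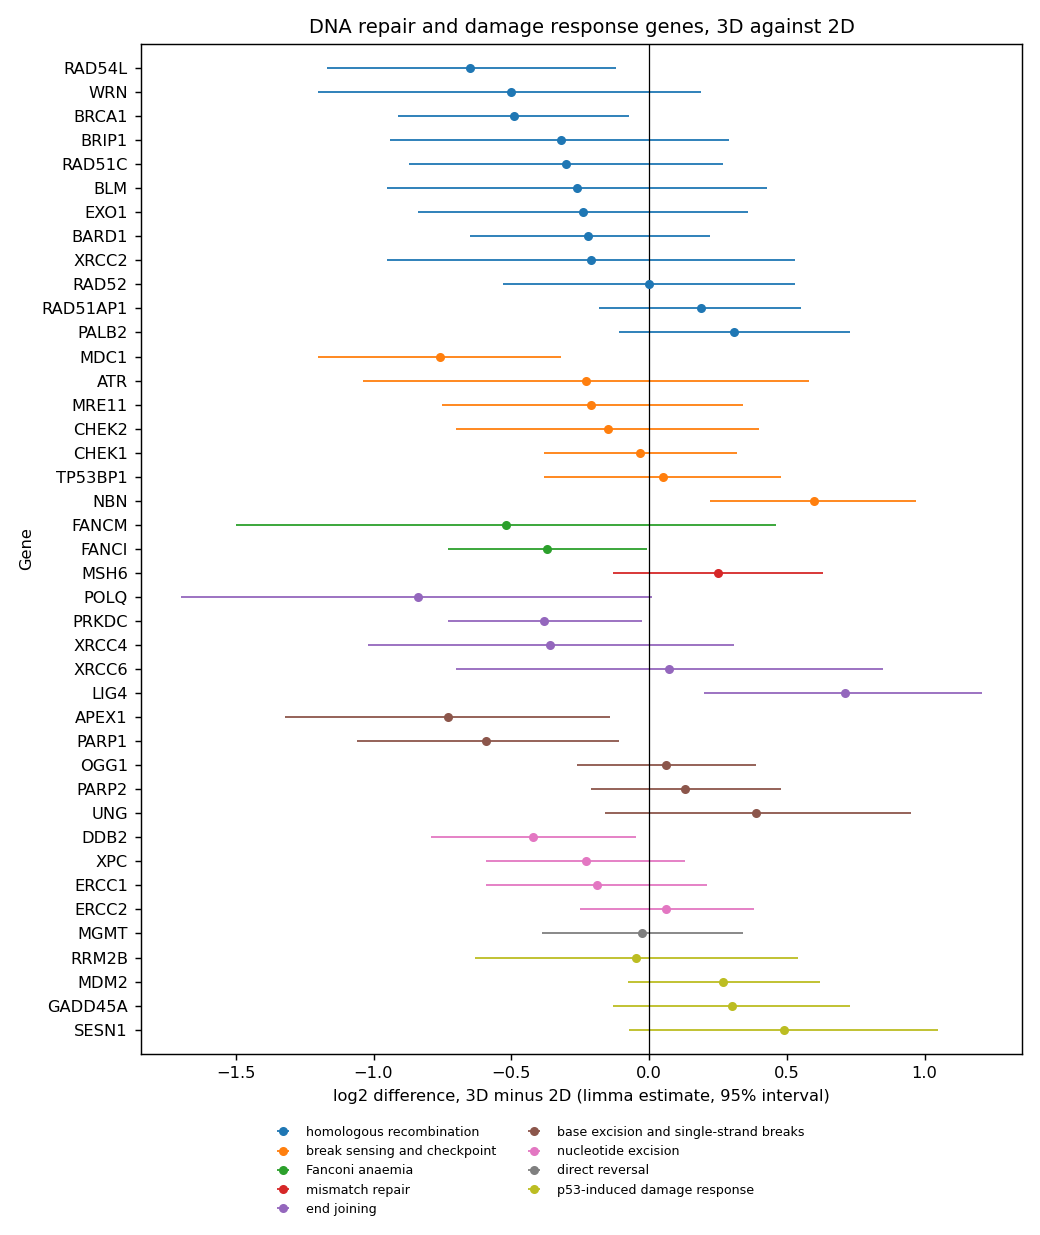
Difference in log2 signal (3D minus 2D, x axis) of the 41 genes with a probe set of their own, grouped by role, with 95% intervals from limma (n = 3 arrays each). The intervals of NBN and LIG4 lie above 0 and those of 8 genes from MDC1 to FANCI lie below 0, and 0 of the 41 pass the adjusted test.

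Of 7 genes that sense and signal double-strand breaks, 1 was higher and 1 was lower at a p under 0.05 before adjustment, with a median of -0.15. For this list and those that follow, the shares of all genes were 7.46% higher and 7.12% lower. Single calls in such short lists are not read as a result about the list. MDC1, a scaffold that binds phosphorylated histone H2AX and spreads the signal along chromatin, was at 7.05, 7.26 and 7.07 in 2D and at 6.30, 6.10 and 6.70 in 3D. All 3D arrays lay below all 2D arrays. The difference was -0.76 (standard error 0.19, 95% interval -1.20 to -0.32, limma, adjusted p = 0.151). It ranged from -0.93 to -0.62 when single arrays were dropped.
NBN encodes nibrin, the subunit that ties the MRE11 and RAD50 nuclease complex to ATM. Its signal was 8.47, 8.15 and 8.35 in 2D and 9.09, 8.86 and 8.82 in 3D, again without overlap but in the opposite direction. The difference of 0.60 (standard error 0.16, 95% interval 0.22 to 0.97, limma, adjusted p = 0.176) lay between 0.51 and 0.67 without single arrays. Its partner in the complex, the nuclease gene MRE11, was at 7.57 ± 0.26 in 2D and 7.37 ± 0.38 in 3D (SD, n = 3 each), a difference of -0.21 with an interval from -0.75 to 0.34. RAD50, the third subunit, shares its probe set with the long noncoding gene CARINH, and this probe set had a difference of -0.065 (interval -0.60 to 0.47).
The checkpoint kinase gene CHEK1 was at 8.92 ± 0.15 in 2D and 8.89 ± 0.073 in 3D (SD, n = 3 each), and the interval of its difference ran from -0.38 to 0.32. Those of the kinase gene CHEK2 (-0.15, interval -0.70 to 0.40) and of TP53BP1, whose protein steers breaks towards end joining (0.051, interval -0.38 to 0.48), also held 0. The estimates of all 3 turned sign when single arrays were dropped, and a probe set that CHEK2 shares with HSCB had 0.071 (interval -0.28 to 0.42). ATM was read by 3 shared probe sets, 2 of them with the neighbouring histone gene regulator NPAT and 1 with C11orf65, and their differences of -0.12, 0.19 and -0.27 did not point one way.

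ATR, the kinase that responds to stalled replication forks, showed how far 1 array could pull a mean. It was at 7.67, 7.49 and 7.78 in 2D and at 7.87, 6.53 and 7.85 in 3D, so that 3D replicates 1 and 3 lay above every 2D array and 3D replicate 2 lay 0.96 below the lowest of the others. With all arrays the difference was -0.23 (interval -1.04 to 0.58), and without 3D replicate 2 it was 0.21. A rule set after the values were seen, namely 1 array more than 0.5 below the other 5, was met by 6 of the 41 members, in each case by 3D replicate 2. Of all genes 6.25% met it in 3D replicate 2 and 0.295% to 1.67% in the other arrays. The other 5 members were POLQ, WRN, FANCM, XRCC4 and EXO1.
WRN, which encodes the RecQ helicase lost in Werner syndrome, was at 8.02, 7.61 and 7.96 in 2D and at 7.62, 6.67 and 7.80 in 3D. FANCM, a translocase that recognises stalled forks, was at 7.10, 6.31 and 6.67 in 2D and at 6.19, 5.29 and 7.05 in 3D. For both genes the groups overlapped. Their differences were -0.50 and -0.52 with all arrays and -0.16 and -0.076 without 3D replicate 2. A dim probe set that WRN shares with PURG had the opposite sign, at 0.31 (interval -0.082 to 0.71).
EXO1, an exonuclease of recombination and mismatch repair, was at 7.97, 7.93 and 8.08 in 2D and at 7.94, 7.16 and 8.16 in 3D. Apart from 3D replicate 2 its arrays thus lay within a narrow band, and its difference was -0.24 with this array and 0.056 without it. XRCC4, the partner of DNA ligase IV, was at 7.38, 7.10 and 7.50 in 2D and at 7.27, 6.31 and 7.33 in 3D, and its difference was -0.36 with 3D replicate 2 and -0.027 without.
Over the 41 members 3D replicate 2 was the lowest of the 6 arrays for 19 (46.3%) and the highest for 4 (9.76%). Over all genes it was the lowest for 20.4% and the highest for 35.9%. The median SD of a member was 0.155 between 2D arrays and 0.306 between 3D arrays, and 0.145 between 3D replicates 1 and 3. Over all genes these medians were 0.152, 0.24 and 0.149. The last value of each set comes from 2 arrays and the others from 3, so that they cannot be compared directly. What sets 3D replicate 2 apart was not tested.

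**Figure D2:**
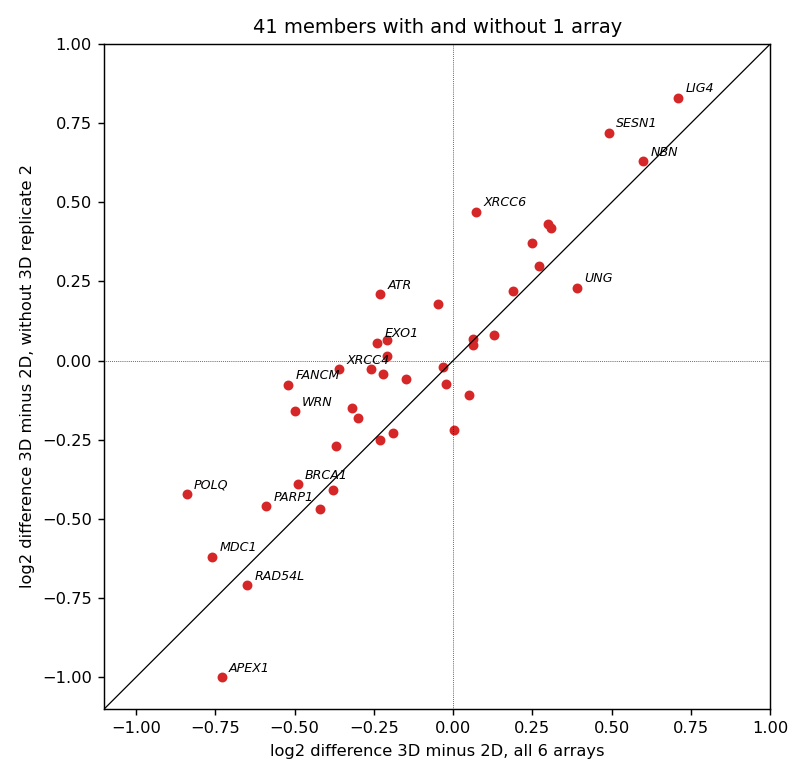
Difference in log2 signal (3D minus 2D) of the 41 members with all 6 arrays (x axis) and without 3D replicate 2 (y axis), each point 1 gene and the line that of equal values. ATR, EXO1, XRCC4, FANCM, WRN and POLQ lie well above the line, while MDC1, RAD54L, NBN and LIG4 stay far from 0 on both axes.

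Of 12 homologous recombination genes with their own probe set, 3 had a difference above 0 and 9 below, with a median of -0.25 and of -0.094 without 3D replicate 2. BRCA1, whose protein promotes resection of the break, was at 7.60, 7.23 and 7.57 in 2D and at 6.95, 6.79 and 7.19 in 3D. The groups did not overlap, though 3D replicate 3 came within 0.1 of 2D replicate 2. The difference was -0.49 (standard error 0.18, interval -0.91 to -0.071, limma, adjusted p = 0.278). It ranged from -0.61 to -0.39 when single arrays were dropped.
RAD54L, a motor protein that acts during invasion of the sister strand, was at 6.43, 6.24 and 6.83 in 2D and at 5.49, 5.97 and 6.09 in 3D. All 3D arrays were lower than all 2D arrays, and the difference was -0.65 (standard error 0.23, interval -1.17 to -0.12, limma, adjusted p = 0.258). Leaving out 3D replicate 2 moved it to -0.71, so that here the low values belonged to the other 3D arrays as well.
For the partners of BRCA1 the intervals held 0. BARD1, which forms the ubiquitin ligase with BRCA1, had a difference of -0.22 (interval -0.65 to 0.22) and -0.042 without 3D replicate 2. The helicase gene BRIP1 had -0.32 (interval -0.94 to 0.29). PALB2, which bridges BRCA1 to BRCA2, had 0.31 (interval -0.11 to 0.73), with signals of 7.73, 7.32 and 7.65 in 2D and of 7.95, 7.66 and 8.02 in 3D.
RAD51AP1, which promotes strand pairing, had 0.19 (interval -0.18 to 0.55), and the recombination genes RAD51C and XRCC2 had -0.30 (interval -0.87 to 0.27) and -0.21 (interval -0.95 to 0.53). The helicase gene BLM had -0.26 (interval -0.95 to 0.43), with 2D replicate 2 at 6.28 and the other 2D arrays at 7.23 and 7.02. RAD52, which anneals single strands, had 0.0014 (interval -0.53 to 0.53), a value without a stable sign.
Of 19 other genes of homologous recombination 0 were higher and 2 were lower at a p under 0.05 before adjustment, and 0 passed the adjusted test. These were RAD51B, which takes part in strand exchange, at -0.56 (adjusted p = 0.207) and EME1, a subunit of a nuclease that cuts joined strands, at -0.76 (adjusted p = 0.241).

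In the Fanconi anaemia pathway, which unhooks crosslinks between strands, FANCI was measured by its own probe set at 7.71, 7.62 and 7.76 in 2D and at 7.45, 7.13 and 7.41 in 3D. FANCI encodes the partner of FANCD2 in the clamp that marks the lesion. Every 3D array lay below every 2D array, with a difference of -0.37 (standard error 0.16, interval -0.73 to -0.0057, limma, adjusted p = 0.324). It became -0.27 when 3D replicate 2 was dropped. The 2 probe sets that FANCI shares with the mitochondrial polymerase gene POLG had -0.30 and -0.13. FANCL, the ubiquitin ligase of the pathway, shares a probe set with the kinase gene VRK2 that had -0.28 with all arrays and 0.0012 without 3D replicate 2. Of 10 other genes of the pathway, FANCC was lower at a p under 0.05 before adjustment, at -0.42 (adjusted p = 0.272), and 0 were higher.

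End joining held the highest and the lowest difference of all members. LIG4, the ligase that seals the ends, was at 6.98, 6.56 and 6.68 in 2D and at 7.84, 7.21 and 7.30 in 3D. The groups did not overlap, and 3D replicate 1 was the highest array. Its difference was 0.71 (standard error 0.22, interval 0.20 to 1.21, limma, adjusted p = 0.216), which is 1.63-fold, and lay between 0.51 and 0.83 without single arrays.
PRKDC, the catalytic subunit of the kinase that holds the ends, was at 9.12, 8.87 and 9.07 in 2D and at 8.52, 8.70 and 8.70 in 3D. Here the spread was small in both groups, and the difference was -0.38 (standard error 0.15, interval -0.73 to -0.026, limma, adjusted p = 0.301). POLQ, the polymerase of the alternative pathway that joins ends at short homologies, was at 6.91, 6.37 and 6.80 in 2D and at 6.05, 5.00 and 6.51 in 3D. Its 3D replicate 3 lay between the 2D arrays, and its difference of -0.84 (interval -1.7 to 0.012, limma, adjusted p = 0.335) was -0.42 without 3D replicate 2. Dropping 3D replicate 3 in its place gave -1.17.
The end-binding subunits came out differently as measurements. XRCC5, or Ku80, shares its probe set with LINC01963, which stayed between 10.68 and 10.96 on all 6 arrays. XRCC6, or Ku70, was represented by a dim probe set at percentile 17.8 of all genes, with 4.63, 5.07 and 4.96 in 2D and 5.46, 4.16 and 5.26 in 3D. Whether it exceeds background is not known from these values, and its difference of 0.072 (interval -0.70 to 0.85) was 0.47 without 3D replicate 2. Of 7 other end joining genes, DCLRE1C, which encodes the hairpin-opening nuclease Artemis, was lower at a p under 0.05 before adjustment (-0.59, adjusted p = 0.244).

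**Figure D3:**
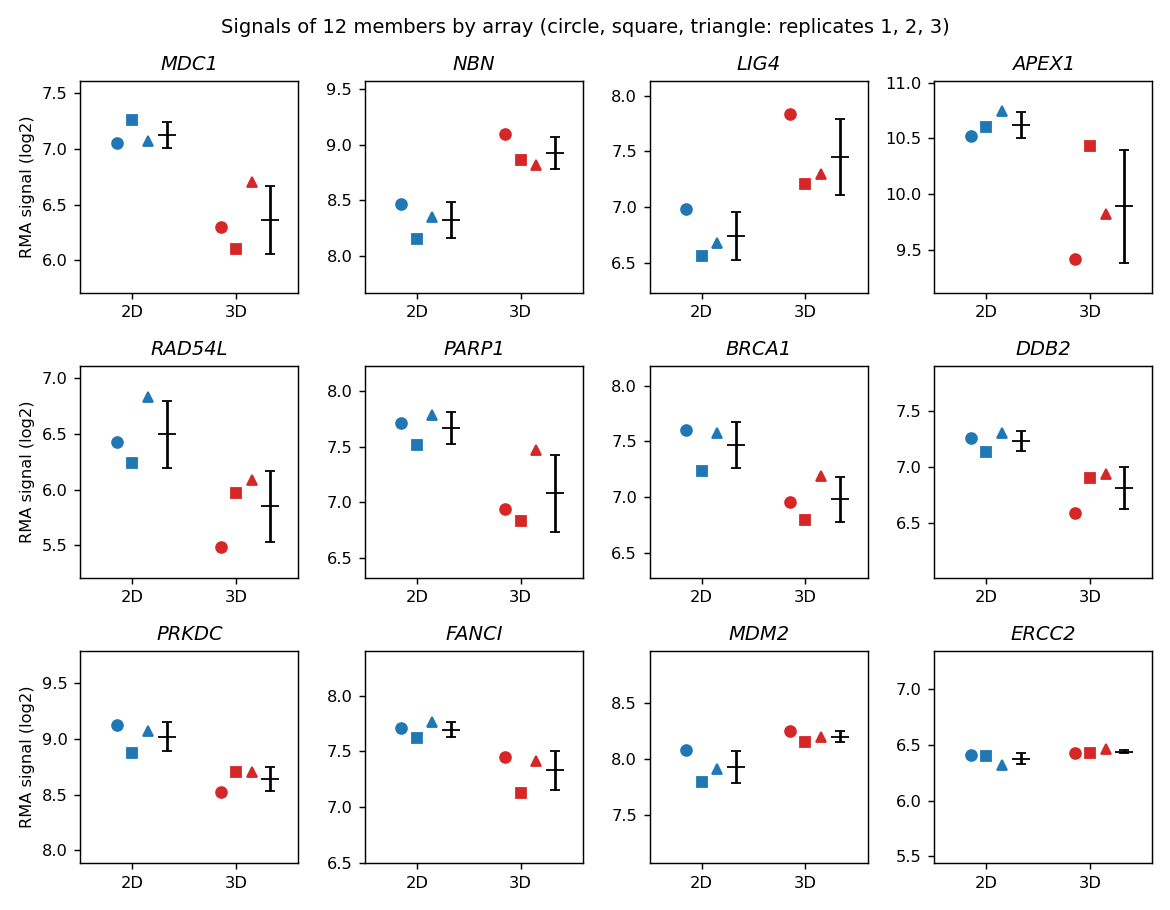
RMA signal (log2, y axis) of the 12 members with a p under 0.05 before adjustment or with groups that do not overlap, in 2D (blue) and 3D (red), with replicates 1 to 3 as circle, square and triangle and the mean ± SD in black (n = 3). Every panel spans the same range of log2 signal. NBN, LIG4, MDM2 and ERCC2 lie higher in 3D and the other 8 lower, and 0 of the 12 pass the adjusted test.

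Base excision repair and the mending of single-strand breaks contained 2 of the 8 lower genes. APEX1, the main endonuclease at sites that lost a base, was at 10.52, 10.60 and 10.75 in 2D and at 9.42, 10.43 and 9.82 in 3D. Its low arrays were 3D replicates 1 and 3, while 3D replicate 2 nearly reached the 2D arrays, the reverse of ATR. The difference was -0.73 (standard error 0.25, interval -1.32 to -0.14, limma, adjusted p = 0.257) and -1.0 without 3D replicate 2 (adjusted p = 0.0734).
PARP1, the sensor that decorates broken sites with ADP-ribose and the target of PARP inhibitors, was at 7.71, 7.51 and 7.78 in 2D and at 6.94, 6.83 and 7.47 in 3D. The groups did not overlap, but 3D replicate 3 lay within 0.1 of 2D replicate 2. The difference was -0.59 (standard error 0.20, interval -1.06 to -0.11, limma, adjusted p = 0.26), and lay between -0.78 and -0.46 when single arrays were dropped.
PARP2, a second enzyme of this kind, had 0.13 (interval -0.21 to 0.48), and the glycosylase gene OGG1, for oxidised guanine, had 0.062 (interval -0.26 to 0.39). UNG, the glycosylase for uracil, was at 8.06, 8.23 and 7.92 in 2D and at 7.94, 8.80 and 8.64 in 3D. Its difference was 0.39 (interval -0.16 to 0.95) and 0.65 without 3D replicate 1, the array that lay among those of 2D. The scaffold gene XRCC1 shares its probe set with IRGQ, with a difference of -0.19 (interval -0.70 to 0.32).
Among 10 other genes of base excision repair 2 were higher at a p under 0.05 before adjustment and 0 were lower. These were the glycosylase genes TDG (0.62, adjusted p = 0.225) and MPG (0.52, adjusted p = 0.275).

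Nucleotide excision repair removes bulky lesions such as those of ultraviolet light. DDB2, which finds them and is also a target of p53, was at 7.26, 7.13 and 7.30 in 2D and at 6.59, 6.90 and 6.94 in 3D. The groups did not overlap, and the difference was -0.42 (standard error 0.16, interval -0.79 to -0.048, limma, adjusted p = 0.287). With single arrays dropped it ranged from -0.48 to -0.31. XPC, a sensor of distorted helices, had -0.23 (interval -0.59 to 0.13).
ERCC2, a helicase subunit of TFIIH, did not overlap between the groups, at 6.41, 6.40 and 6.32 in 2D and 6.43, 6.43 and 6.46 in 3D, yet its difference was only 0.063 (interval -0.25 to 0.38, limma, adjusted p = 0.842). The probe set it shares with KLC3 had 0.28 (interval -0.10 to 0.66). ERCC1, which with its partner cuts on the far side of the lesion, was read in opposite directions. Its own probe set had -0.19 (interval -0.59 to 0.21), and the one it shares with the polymerase subunit gene POLR1G had 0.39 (interval 0.051 to 0.72, adjusted p = 0.283). The damage-verifying protein gene XPA shares a probe set with NCBP1 that had -0.11 (interval -0.55 to 0.34).
Of 13 other genes of this pathway 2 were higher and 1 was lower at a p under 0.05 before adjustment. CETN2, a partner of XPC, had 0.85 (adjusted p = 0.113) and RAD23B, another partner, had 0.43 (adjusted p = 0.246). ERCC5, the nuclease that cuts on the near side, had -0.77 (adjusted p = 0.108).

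Mismatch repair was represented by MSH6, which takes part in recognising mispaired bases, and by PMS2. MSH6 was at 8.39, 8.21 and 8.22 in 2D and at 8.62, 8.30 and 8.67 in 3D, a difference of 0.25 (interval -0.13 to 0.63). PMS2 shares its probe set with the related pseudogene PMS2CL, and this probe set was at 8.91, 8.71 and 8.85 in 2D and at 8.13, 8.12 and 8.61 in 3D. The shared signal did not overlap between groups, with a difference of -0.53 (standard error 0.18, interval -0.95 to -0.11, limma, adjusted p = 0.254), and the probe set cannot part gene and pseudogene. Of 4 other genes of mismatch repair, MLH3 was lower at a p under 0.05 before adjustment (-0.44, adjusted p = 0.33). MGMT, which lifts alkyl groups off guanine and is silenced in many tumours, stayed between 6.17 and 6.45 on all 6 arrays.
All 9 genes of a list of other direct reversal enzymes and translesion polymerases, which copy past lesions, lay below 0, from -0.94 to -0.002. Of all 14232 genes, 5750 lay below 0. The median of the 9 was -0.38, and -0.098 without 3D replicate 2. Relative to the 2D mean of each gene, their median was -0.2, -0.95 and 0.0067 in 3D replicates 1 to 3. The 2 genes lower at a p under 0.05 before adjustment were ALKBH2, a demethylase of DNA (-0.88, adjusted p = 0.131), and POLH, the polymerase that copies past ultraviolet lesions (-0.94, adjusted p = 0.172).

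Of the 4 genes induced by p53 after damage, 3 had a difference above 0 and 0 passed the test. MDM2, the ubiquitin ligase that restrains p53 and is its target, was at 8.08, 7.79 and 7.91 in 2D and at 8.25, 8.15 and 8.20 in 3D. The groups did not overlap, and the difference was 0.27 (standard error 0.15, interval -0.076 to 0.62, limma, adjusted p = 0.42). GADD45A, a stress protein that slows the cell cycle, had 0.30 (interval -0.13 to 0.73) and 0.43 without 3D replicate 2.
SESN1, a sestrin that dampens growth signalling, was at 6.05, 5.62 and 6.12 in 2D and at 6.55, 5.97 and 6.75 in 3D. In both groups replicate 2 was the lowest array. Its difference was 0.49 (interval -0.071 to 1.05, limma, adjusted p = 0.379) and 0.72 without 3D replicate 2. RRM2B, the ribonucleotide reductase subunit that supplies nucleotides for repair, had -0.047 (interval -0.63 to 0.54), with no stable sign.
The median of the 4 genes was 0.29, and between 0.20 and 0.36 without single arrays, while DDB2, which p53 also induces, lay at -0.42. Of 19 other p53 target genes 3 were higher at a p under 0.05 before adjustment and 0 were lower, with 10 above 0, 9 below and a median of 0.024. The 3 were the cell cycle inhibitor gene CDKN1A (0.60, adjusted p = 0.186), TP53INP1, which promotes p53 activity (0.64, adjusted p = 0.256), and BBC3, which encodes the death trigger PUMA (0.60, adjusted p = 0.298).

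The members were set beside genes of the dividing cell. Of 27 mitosis genes 26 lay below 0, beside 5750 of all 14232 genes, with a median of -0.42. At a p under 0.05 before adjustment 11 were lower (40.7%, beside 7.12% of all genes) and 0 were higher (beside 7.46%). The lowest p-values were those of CDC20, an activator of the anaphase ligase (-1.09, adjusted p = 0.0596), CENPF, a kinetochore protein gene (-0.82, adjusted p = 0.132), and ANLN, which encodes the cytokinesis protein anillin (-0.84, adjusted p = 0.171). Of 34 DNA replication genes 16 lay above 0 and 18 below, with a median of -0.013. The 3D and 2D arrays did not overlap for 7 replication genes that lay lower (20.6%, beside 9.75% of all genes). They also did not overlap for 1 that lay higher (2.94%, beside 14.3%). At a p under 0.05 before adjustment 0 replication genes were higher and 3 were lower (8.82%, near the share of all genes). The 3 were POLA2 (-0.61, adjusted p = 0.219), RFC2 (-0.65, adjusted p = 0.224) and TK1 (-0.62, adjusted p = 0.306), for a polymerase subunit, a clamp loader subunit and thymidine kinase.
Relative to the 2D mean of each gene, the median of the mitosis genes was -0.41, -0.68 and -0.33 in 3D replicates 1 to 3, so that it was low in each. For the repair and damage response members it was -0.059, -0.33 and -0.0082, and 0.078, -0.15 and 0.066 in 2D replicates 1 to 3. The lowest array was 3D replicate 2, followed by 2D replicate 2. The replication genes had -0.25, -0.049 and 0.049, with 3D replicate 1 the lowest. Whether these lists differ from each other was not tested.
Of 90 other repair genes from the lists above, p53 targets left out, 0 were higher and 0 lower in the adjusted test. Before adjustment 4 were higher and 11 lower at a p under 0.05 (4.44% and 12.2%, beside 7.46% and 7.12% of all genes). Their median was -0.11, and in 3D replicates 1 to 3 it was -0.035, -0.42 and -0.037. Of the checkpoint genes in this list, CDC25C, the phosphatase that opens mitosis, had -1.21 (adjusted p = 0.0882), BABAM1, a subunit of the BRCA1-A complex, had -0.71 (adjusted p = 0.113), and the fork protein gene TIMELESS had -0.40 (adjusted p = 0.29).

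**Figure D4:**
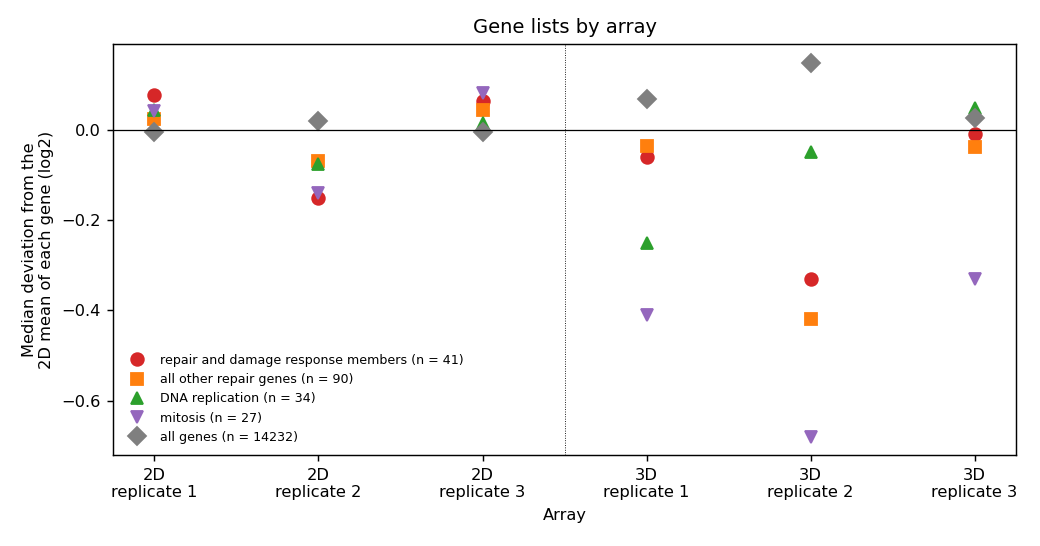
Median deviation of each gene list from the 2D mean of its genes (log2, y axis) on each of the 6 arrays (x axis). The 41 members and the 90 other repair genes lie near 0 in 3D replicates 1 and 3 and at -0.33 and -0.42 in 3D replicate 2, whereas the mitosis genes lie between -0.68 and -0.33 in all 3D arrays.

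Promoter sequences from RefSeq (GRCh38.p14, 250 bases before to 50 after each start site) were found for 35 of the 41 genes, in 58 windows, since some genes have several starts. They were searched on both strands for sites of E2F, written as TTTCGCGC, TTTGGCGC or TTTCCCGC, and for the element bound by the MuvB complexes of mitotic genes, written as TTTGAA or TTCGAA. An E2F site lay in 7 windows of 6 genes (12.1% of the windows, against 2.74% of all 35116 promoter windows), namely EXO1, MSH6, XPC, XRCC2, MDM2 and XRCC6. The differences of these genes lay between -0.24 and 0.27. The other element lay in 7 windows of 7 genes (12.1%, against 16.4% of all windows), namely POLQ, MDC1, DDB2, UNG, PARP2, BRIP1 and ERCC1, with differences from -0.84 to 0.39. A match shows only that the letters are present.
The stretches below show 3 matches of each kind, with the matched letters in capitals, and were chosen after the values were seen. MDC1 lies at chr6:30717382-30717441 on the minus strand, POLQ at chr3:121545959-121546015 on the minus strand, and DDB2 at chr11:47214946-47215003 on the plus strand. MDM2 lies at chr12:68807922-68807969, EXO1 at chr1:241848178-241848233 and MSH6 at chr2:47783118-47783174, all on the plus strand. Counted from the start site, with no position 0, they run from -160 to -101 in MDC1, -27 to 30 in POLQ, -28 to 30 in DDB2, -250 to -203 in MDM2, -26 to 30 in EXO1 and -27 to 30 in MSH6.
MDC1: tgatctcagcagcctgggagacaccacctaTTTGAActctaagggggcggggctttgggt
POLQ: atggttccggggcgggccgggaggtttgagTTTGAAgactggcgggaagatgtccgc
DDB2: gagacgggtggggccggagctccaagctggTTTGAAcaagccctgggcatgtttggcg
MDM2: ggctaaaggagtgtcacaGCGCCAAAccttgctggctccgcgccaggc
EXO1: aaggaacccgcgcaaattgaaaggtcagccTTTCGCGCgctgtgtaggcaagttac
MSH6: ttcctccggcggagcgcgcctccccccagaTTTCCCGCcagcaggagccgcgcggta
The letters TTTGAA lay in MDC1, POLQ and DDB2, whose differences were -0.76, -0.84 and -0.42, and also in UNG (0.39), BRIP1 (-0.32) and ERCC1 (-0.19). The match begins at position 4 in POLQ, 3 in DDB2 and -130 in MDC1, and POLQ has a further match on the opposite strand at -230. The E2F letters of MDM2 run on the opposite strand, and its 2 overlapping windows hold the same site.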

How the data were processed

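RNA of HCC827 cells was measured on 3 arrays of 2D and 3 arrays of 3D cultures. The deposited log2 signals of 22011 probe sets are RMA values that the authors computed with oligo, an R package (its version: not given in the sources used here). They were used as given. The distribution of signals was the same on all arrays up to 0.033 at any rank. Symbols came from the platform annotation, in which 14432 probe sets carried 1 symbol, 2408 several and 5171 none. Where a gene had several probe sets of its own, the brightest was used, and shared probe sets are reported apart. Arrays have no sequencing depth, and their number limits the precision.

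The fit of every probe set used limma (version 3.58.1, R 4.3.3) and was first tested on simulated data. Python 3.11.15 and its matplotlib 3.10.9 made the figures. The members and gene lists were chosen with earlier results of these data known. Members were given array by array where p was under 0.05 before adjustment or the groups did not overlap, and further members shown in this way (such as ATR, POLQ, SESN1 and UNG) were chosen after their values were seen. Other genes were named at a p under 0.05 before adjustment, up to 3 a list and direction. No order of abundance was drawn between genes, since probes differ in brightness. Alternatives were the removal of dim probe sets (mean signal under percentile 40), other priors and array weights in limma, the replicate number as a block, other thresholds, other ways to treat several probe sets, and leaving out each array.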

Additional observations from a re-analysis of the deposited data

How the results depend on the processing

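The counts of members past the adjusted threshold were 0 higher and 0 lower under all alternatives that were run. Over all probe sets the calls rose from 84 to 152 with dim probe sets left out, to 415 with array weights, to 185 with 1 probe set per gene (the brightest or their mean) and to 290 at a threshold of 0.10, and were 0 at 0.01. They numbered 0 to 150 without single arrays. Without single arrays, 2 to 7 members were higher and 1 to 8 lower at a p under 0.05 before adjustment, and the median of the members was -0.29 to -0.027. Fewer arrays also leave fewer degrees of freedom. With the replicate number as a block (replicate block), 86 probe sets were called at the adjusted threshold. Before adjustment 3 members were higher and 9 lower at a p under 0.05. The share of all genes before adjustment was not computed for this fit, so these 2 counts have no background. The deviations of arrays with the same number correlated at 0.0892, 0.374 and 0.223, and those of arrays with different numbers at -0.327 to 0.167. For each 3D array the 2D array of the same number had the highest correlation. The labels do not say if the numbers pair the samples, and the main fit did not use them. Whether the samples are paired was not tested.

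The difference changed sign in 26 of 693 values, for 15 of the 56 member probe sets, shared ones included. When single arrays were dropped, it ran from -0.22 to 0.13 for RAD52, -0.36 to 0.015 for MRE11, -0.46 to 0.21 for ATR, -0.10 to 0.045 for CHEK1, -0.32 to 0.085 for CHEK2, -0.11 to 0.18 for TP53BP1, -0.45 to 0.056 for EXO1, -0.59 to 0.064 for XRCC2, -0.18 to 0.47 for XRCC6, -0.086 to 0.069 for MGMT and -0.27 to 0.18 for RRM2B. For shared probe sets it ran from -0.22 to 0.18 (RAD50 and CARINH), -0.34 to 0.15 (ATM and NPAT), -0.44 to 0.0012 (FANCL and VRK2) and -0.22 to 0.045 (XPA and NCBP1). Dropping 3D replicate 2 turned the sign for 11 of the 15, namely RAD52, MRE11, ATR, TP53BP1, EXO1, XRCC2, RRM2B and the 4 shared probe sets. With array weights the values were -0.17 for RAD52, -0.048 for TP53BP1, 0.064 for RRM2B and 0.040 for RAD50 and CARINH. The cause was not tested.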
